A study of Danio rerio with 33 samples.

Results

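The zebrafish genes whose symbol is znf followed by a number were followed across kctd15 mutant, injected and wild-type embryos and across the adult gonads. A script took every row of the deposited gene table whose symbol begins with znf and a digit, which gave 135 of 30490 genes. Symbols without such a number after znf, such as znfl1 and znfx1, were outside this choice. By the number in the symbol, 35 members had 900 or more and are called zebrafish-series here, since such symbols were mostly given in zebrafish to genes with no single human counterpart. The other 100 members had a lower number, shared with a human ZNF symbol, and are called human-series.

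Most znf genes encode C2H2 zinc finger proteins, in which each finger is a short loop held by a zinc ion and several fingers in a row read a stretch of DNA. Vertebrate genomes hold lineage-specific expansions of such genes, often in arrays, and many of the expanded proteins act as repressors. Others are conserved single genes with roles in transcription, RNA handling or protein modification, and a few, such as znf185, are named zinc fingers for a different zinc-binding domain.

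Polyadenylated RNA from Danio rerio was sequenced in 33 libraries, 3 biological replicates in each of 11 groups. Embryos at the 10-somite stage were kctd15 mutant, wild type injected with 100 pg kctd15, wild type injected with 5 pg AP2, wild type injected with 5 pg AP2-P59, wild type injected with 5 pg AP2 plus 100 pg kctd15, wild type injected with 5 pg AP2-P59 plus 100 pg kctd15, or wild type without injection. Adult testis and adult ovary came from kctd15 mutant and from wild-type fish. The labels do not say which kctd15 gene is mutated, what the allele is, how many embryos or fish made a library, or whether the injected material was RNA or DNA. Kctd15 is a BTB-domain protein known in zebrafish as an inhibitor of AP-2 transcription factors in neural crest formation.

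Libraries held 15152199 to 24131756 estimated counts, and 127 to 135 members had a count in each library. The znf genes together took 0.28% to 0.58% of the counts of a library. Levels below are TMM-scaled CPM, counts relative to a library total that is adjusted for its composition. They depend on transcript length, so no level is compared between genes. On a scale common to all 33 libraries, kctd15a was at 220, 199 and 205 CPM in mutant embryos, against 61.4, 55.6 and 42.8 CPM in wild-type embryos. The second copy, kctd15b, was at 7.96, 5.51 and 6.09 CPM in mutant embryos, against 4.65, 4.35 and 4.03 CPM in wild-type embryos. In ovaries kctd15b was at 0.927, 0.261 and 0.384 CPM in mutants, against 4.42, 1.78 and 2.63 CPM in wild type. The kctd15a difference in embryos passed the edgeR test used below (adjusted p 0.00866). The kctd15b differences did not, in embryos (adjusted p 0.418, edgeR) or in ovaries (adjusted p 0.128, edgeR). With no allele given, these transcript levels do not check the genotype labels. The tissue labels matched their markers: 7 oocyte genes summed to at least 4600 CPM in every ovary library and to at most 34.3 CPM elsewhere, and 7 testis genes to at least 1152 CPM in every testis library and at most 14.1 CPM elsewhere. Mutant ovary replicate 3 had 74692 CPM of vtg1, a liver-made yolk protein, and wild-type ovary replicate 1 had 2196 CPM, against at most 270 CPM in the other ovaries. Wild-type testis libraries ranged from 32.0 to 150.6 CPM in the sum of 3 leukocyte markers. That sum was 32.8 to 38.0 CPM in mutant embryos and 13.3 to 21.8 CPM in wild-type embryos. It was higher through lcp1 alone, at 34.8, 37.6 and 32.8 CPM in mutant and 20.9, 12.4 and 14.7 CPM in wild-type embryos. The other 2 markers were near 0 and lower in mutants, with ptprc at 0.129, 0 and 0.0648 CPM, against 0.286, 0.429 and 0.366 CPM. For coro1a the levels were 0.129, 0.336 and 0 CPM, against 0.645, 0.490 and 0.488 CPM.

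The mutant comparison asks what differed at the 10-somite stage between embryos labelled kctd15 mutant and wild type. Whether these groups differed in more than kctd15 was not tested. Among 129 znf genes tested in embryos, 1 rose and 2 fell in mutants, and the 2.33% called compares with 4.09% of all 22305 genes (1.36% higher, 2.73% lower). A call here means an adjusted p under 0.05 in edgeR's quasi-likelihood test with Benjamini-Hochberg adjustment over all genes. The largest change was that of znf664, a C2H2 gene of little-studied function. Its level was 0.176, 0 and 0.413 CPM in mutants, against 5.80, 8.85 and 4.83 CPM in wild-type embryos. Every mutant library lay below every library of wild-type genotype. The 18 embryo libraries of wild-type genotype, 15 of them injected, spanned 2.81 to 8.85 CPM with a median of 5.02 CPM. The log2 fold change was -4.98 ± 0.526 (SE), with an adjusted p of 4.07e-05 in edgeR's quasi-likelihood test. The call held without each library in turn.

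The other 2 calls were small. The human-series gene znf532 was at 16.8, 17.6 and 21.2 CPM in mutant embryos, against 14.03, 8.79 and 9.93 CPM in wild-type embryos. The 2 groups did not overlap, but the injected embryos, at 10.4 to 17.6 CPM, overlapped the mutants. Its log2 fold change was 0.77 ± 0.20 (SE, adjusted p 0.0365, edgeR). Mutant and wild-type embryos did not overlap for 28.7% of members and for 26.3% of all genes. The zebrafish-series gene znf1005 was at 7.57, 4.59 and 5.90 CPM in mutant embryos, against 10.4, 12.3 and 9.54 CPM in wild-type embryos. Injected embryos reached down to 6.22 CPM and so overlapped the mutants here too. Its log2 fold change was -0.84 ± 0.221 (SE, adjusted p 0.0384, edgeR). Each of these calls was lost when 5 of the 6 libraries compared were left out 1 at a time. Without wild-type embryo replicate 2 the adjusted p was 0.152 for znf532 and 0.143 for znf1005. Of the 3 leukocyte markers, lcp1 was higher and ptprc and coro1a lower in mutant embryos, as given above. The part of leukocytes in these differences was not tested.

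**Figure D1:**
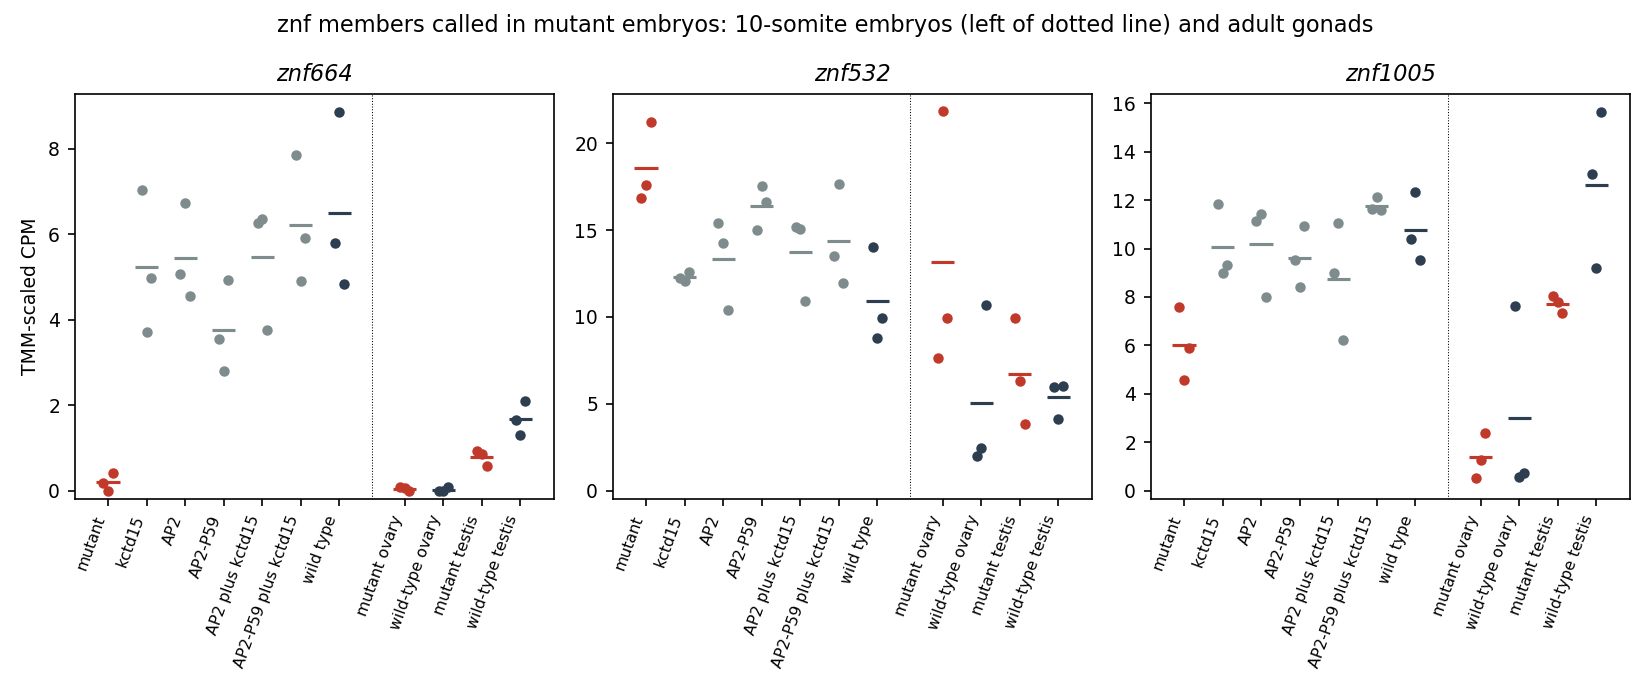
TMM-scaled CPM (linear axis from 0, 1 point per library, bar at the group mean, 3 libraries per group) of the 3 znf genes called in mutant embryos, in 7 embryo groups left of the dotted line and 4 gonad groups right of it. Mutant groups are red, wild-type groups dark and injected groups grey; znf664 sits at 0 to 0.413 CPM in mutant embryos and at 2.81 CPM or more in all 18 other embryo libraries, whereas znf532 and znf1005 overlap the injected groups.

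An unadjusted p under 0.05 was reached in mutant embryos by 29 of the 129 members, or 22.5%, against 19.8% of all genes. DESeq2 called 5 members, or 3.76% of those it tested, against 7.05% of all genes. With the replicate number as a block in the model, edgeR called 17 members, or 13.2%, against 13.1% of all genes. The zebrafish-series gene znf1002 was at 8.15, 9.05 and 7.91 CPM in mutants, against 4.61, 4.54 and 5.78 CPM in wild type (log2 0.75 ± 0.216 SE, adjusted p 0.0573, edgeR). The gene znf512 was at 1.58, 2.08 and 1.48 CPM in mutants, against 2.90, 4.82 and 3.20 CPM in wild type (log2 -1.09 ± 0.349 SE, adjusted p 0.0865, edgeR). For znf346, a double-stranded RNA-binding zinc finger protein in mammals, mutants were at 140, 149 and 102 CPM and wild-type embryos at 181, 190 and 176 CPM (adjusted p 0.0871, edgeR). Without the block none of these 3 differences passed edgeR's test, while DESeq2 called znf1002 (adjusted p 0.0173). With the block edgeR called znf1002, znf512 and znf346 (adjusted p 0.0139, 0.0327 and 0.0324). Across the 35 zebrafish-series members, 25 had a positive log2 fold change and the median was 0.25, against -0.02 for 94 human-series members and -0.01 for all genes. The zebrafish-series genes summed to 455, 510.3 and 505 CPM in mutant embryos, against 413, 490 and 409 CPM in wild-type embryos, so the groups overlapped.

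The same comparison in adult gonads gave no called znf gene. In ovaries 0 of 129 members passed edgeR's quasi-likelihood test, against 0.553% of 25870 genes, and 14 members (10.9%) had an unadjusted p under 0.05, against 14.8% of all genes. DESeq2 called 4 members in ovaries, or 3.15% of those it tested, against 4.49% of all genes, and limma called 0. Without mutant ovary replicate 3 edgeR called 0, and without wild-type ovary replicate 1 it called 1, znf541 (log2 2.28, adjusted p 0.0453). In testes 0 of 129 passed, against 0.0696% of all genes, with 2 members (1.55%) at an unadjusted p under 0.05, against 7.01% of all genes, and 0 called by DESeq2 or limma. For znf664 the mutant testes were at 0.939, 0.850 and 0.582 CPM, against 1.65, 1.31 and 2.095 CPM in wild-type testes. These groups did not overlap, but the log2 difference of -1.09 ± 0.577 (SE) had an adjusted p of 0.781 in edgeR. Mutant and wild-type testes did not overlap for 12.4% of members and for 15.8% of all genes. In ovaries znf664 was at 0.0885 CPM or less in every library of both genotypes.

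In the edgeR fit reported, the ovary members nearest to a call belonged to the zebrafish series. This depends on the setting, since the members edgeR called in other settings were human-series. They were znf410 and znf653 with a replicate block, and znf541 without wild-type ovary replicate 1. The level of znf1004 was 1.15, 1.78 and 0.687 CPM in mutant ovaries, against 0.205, 0.292 and 0.0814 CPM in wild-type ovaries (log2 2.59 ± 0.581 SE, adjusted p 0.0802, edgeR). In the opposite direction, znf1008 was at 0.354, 0.306 and 0.458 CPM in mutant ovaries, against 1.43, 0.804 and 1.63 CPM in wild-type ovaries (log2 -1.77 ± 0.409 SE, adjusted p 0.0893, edgeR). Likewise znf1015 was at 10.97, 14.8 and 14.5 CPM in mutant ovaries, against 24.9, 26.8 and 48.3 CPM in wild-type ovaries (log2 -1.31 ± 0.366 SE, adjusted p 0.144, edgeR). The genes znf1004, znf1008 and znf1015 and the human-series gene znf800b were the 4 that DESeq2 called. The zebrafish-series genes summed to 123, 123 and 155 CPM in mutant ovaries, against 156, 163 and 218 CPM in wild-type ovaries. Every mutant ovary lay below every wild-type ovary in this sum. The margin was narrow, with 155.4 CPM in mutant ovary replicate 3 and 155.8 CPM in wild-type ovary replicate 1. It is smaller than the difference in znf1015 alone, and with znf1015 left out of the sum the groups overlap. The sum therefore does not show a shift of the class as a whole. Mutant ovary replicate 3 is the library with high vtg1, whose part was not tested. The median log2 fold change of the 31 zebrafish-series members tested was -0.30, against 0.12 for 98 human-series members and 0.05 for all genes.

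In testes the smallest p belonged to znf451, a SUMO ligase in mammals, which was at 99.0, 63.1 and 103 CPM in mutants, against 34.6, 53.1 and 52.6 CPM in wild type. The groups did not overlap, but the log2 fold change of 0.92 ± 0.245 (SE) had an adjusted p of 0.307 in edgeR. Next was znf804a, at 3.44, 1.78 and 2.06 CPM in mutant testes, against 0.871, 0.533 and 1.11 CPM in wild-type testes (adjusted p 0.414, edgeR). The median log2 fold change in testes was 0.15 for zebrafish-series members, 0.03 for human-series members and 0.07 for all genes. The difference between the mutant effects in ovary and testis, tested as an interaction, was called for 0 of 129 members by edgeR, against 0.0812% of all genes. There 11 members (8.53%) had an unadjusted p under 0.05, against 10.9% of all genes. For this difference limma called 0 members and DESeq2 called 1, znf1008, against 1.56% of all genes.

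No znf gene passed the test in the kctd15 injections. The labels do not say which kctd15 was injected. For kctd15a the log2 fold change was 0.63 with kctd15 alone, 0.88 with AP2 and 0.53 with AP2-P59 (adjusted p 1, 0.85 and 1.00, edgeR). For kctd15b it was -1.45, -1.91 and -1.15 (adjusted p 0.819, 0.0774 and 1.00, edgeR). With the replicate number as a block, which pairs these libraries, kctd15b passed the test with AP2 (log2 -1.92 ± 0.387 SE, adjusted p 0.0232, edgeR) and kctd15a in none of the 3 comparisons. Against wild-type embryos, kctd15 alone gave 0 calls among 129 members, with 0% of all genes called and 4 members at an unadjusted p under 0.05, or 3.1%, against 3.42% of all genes. Adding kctd15 to AP2 gave 0 called members, against 0.197% of all genes, with 4 at an unadjusted p under 0.05, or 3.1%, against 5.18% of all genes. Adding kctd15 to AP2-P59 gave 0 called members and 0% of all genes, with 1 at an unadjusted p under 0.05, or 0.775%, against 4.06% of all genes. With the block 0 members were called in each comparison, against 0.0538% of all genes for kctd15 alone, 0.641% with AP2 and 0.0583% with AP2-P59. DESeq2 and limma also gave 0 members in each of the 3 comparisons, as did edgeR without any single library. The member with the smallest p in the presence of AP2 was znf750, an epidermal differentiation factor in mammals, at a log2 fold change of -0.82 ± 0.313 (SE, adjusted p 0.705, edgeR; 0.113 with the block). With kctd15 alone znf750 had a log2 fold change of -0.66 ± 0.311 (SE, adjusted p 1, edgeR), and with the block an adjusted p of 0.605 in edgeR. In the presence of AP2-P59 its log2 fold change with the block was -0.16 ± 0.216 (SE, adjusted p 0.867, edgeR). Over the 129 members, log2 fold changes ran from -0.66 to 0.74 for kctd15 alone, from -1.06 to 0.70 for kctd15 added to AP2, and from -0.76 to 1.06 for kctd15 added to AP2-P59.

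Among wild-type tissues the share of znf genes called in either direction was close to that of all genes. By direction, members leaned lower in gonads than in embryos. Their median log2 fold change against embryo was -1.09 in ovary and -0.90 in testis, beside -0.18 and 0.07 for all genes. In ovaries 33 of 133 members were higher and 70 lower than in embryos, and the 77.4% called compares with 69.8% of 25039 genes (32.6% higher, 37.2% lower). In testes 22 of 133 were higher and 72 lower than in embryos, 70.7% in all, against 67% of all genes (34.4% higher, 32.5% lower). Between testes and ovaries 50 of 129 were higher in testis and 46 lower, 74.4% in all, against 70.5% of 25870 genes (41.6% higher, 28.9% lower). In bulk tissue fewer cells that express a gene and less RNA per cell cannot be told apart, and embryo and gonad also differ in age and cell make-up.

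The zebrafish-series genes were low in ovary. Of 34 tested, 28 were lower and 5 higher in ovary than in embryo, and their median log2 fold change was -3.41, against -0.28 for human-series members and -0.18 for all genes. Against testis 21 of 31 were higher in testis and 2 lower, with a median of 2.07, against -0.44 for human-series members and 0.72 for all genes. In testis against embryo 19 of 34 were lower and 2 higher, with a median of -1.28, against -0.72 for human-series members and 0.07 for all genes. Summed over the 35 genes the level was 259, 292 and 332 CPM in testes, 148, 153 and 207 CPM in ovaries and 487, 580 and 482 CPM in embryos, so the 3 tissues did not overlap. A mean of at least 1 CPM was reached by 27 of the 35 in testis, 20 in ovary and 33 in embryo. Without each wild-type library in turn, 27 to 28 of the 28 genes were again called lower in ovary than in embryo, and 19 to 21 of the 21 higher in testis than in ovary. Where members have closely similar sequences, their reads are divided by estimation, so such rows may not be independent. How far this holds was not tested.

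**Figure D2:**
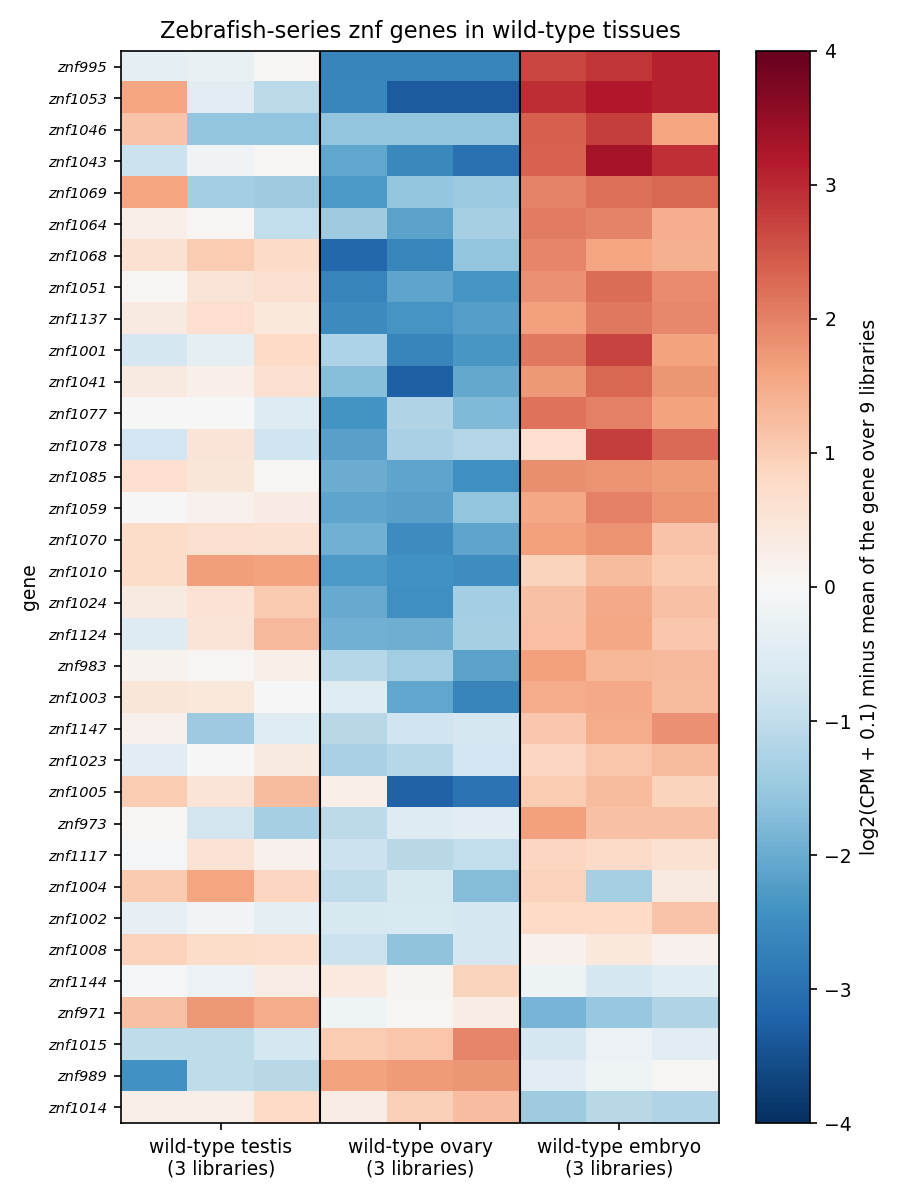
Heat map of the 34 zebrafish-series znf genes tested in wild-type tissues, 1 row per gene and 1 column per library, with colour for log2(CPM + 0.1) minus the mean of the gene over 9 libraries. Rows are ordered by the fold change between ovary and embryo; most rows are red in embryo and blue in ovary, and the bottom rows (znf971, znf1015, znf989, znf1014) are lowest in embryo or testis.

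Of the 31 zebrafish-series genes tested in all 3 comparisons, 17 were called highest in embryo against both gonads, or 54.8%, beside 17.4% of 24643 genes and 28.6% of human-series members. As many as 19, or 61.3%, were called lower in ovary than in both other tissues, beside 24.1% of all genes and 22.4% of human-series members. The embryo-high genes included znf1053, at 2.93, 0.641 and 0.376 CPM in testes, 0.0646, 0 and 0 CPM in ovaries and 7.77, 9.15 and 8.46 CPM in embryos. Ovaries were lower than embryos by a log2 value of -8.12 ± 1.08 (SE, adjusted p 5.27e-05, edgeR), a size that rests on ovary counts close to 0. The gene znf1043 was at 1.33, 2.29 and 2.59 CPM in testes, 0.517, 0.343 and 0.231 CPM in ovaries and 13.4, 26.0 and 19.8 CPM in embryos. Its log2 fold change between ovary and embryo was -5.71 ± 0.478 (SE, adjusted p 1.60e-06, edgeR). No 2 tissues overlapped for either gene.

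Some zebrafish-series genes had no count in any wild-type ovary library. These were znf995, znf1046 and znf1079, and the human-series gene znf653 joined them. Against a floor of 3 counts over the 3 ovary libraries, znf995 was at least 64.42-fold lower in ovary than in embryo, znf1046 at least 20.03-fold and znf1079 at least 11.25-fold lower, which covers counting error only. The level of znf995 was 0.388, 0.412 and 0.542 CPM in testes and 3.89, 4.44 and 5.15 CPM in embryos. Testes were near 0 as well for znf1046 (0.560, 0 and 0 CPM) and znf1079 (0, 0 and 0.0417 CPM). Their near absence is therefore not particular to ovary. The gene znf1079 did not pass the filter of the wild-type fit and was not tested there. The counts of znf653 were uneven within groups, at 0, 6.32 and 5.72 CPM in testes and 5.52, 1.39 and 2.64 CPM in embryos. With a replicate block it was called higher in mutant than in wild-type ovaries (log2 8.78, adjusted p 0.0464, edgeR). That size rests on the wild-type counts of 0. Without mutant embryo replicate 3 it was called lower in mutant embryos (log2 -8.53, adjusted p 0.0163, edgeR). The fits reported called it in neither.

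Testis kept other zebrafish-series genes near the embryo level. The gene znf1010 was at 8.78, 16.8 and 15.98 CPM in testes, 0.969, 0.893 and 0.849 CPM in ovaries and 9.64, 12.7 and 10.8 CPM in embryos. Testes and embryos overlapped, and ovaries lay below both (testis against ovary, log2 3.94 ± 0.503 SE, adjusted p 2.47e-05, edgeR). A single zebrafish-series gene, znf971, was called highest in testis, at 19.4, 28.3 and 23.8 CPM in testes, 7.56, 8.999 and 10.4 CPM in ovaries and 2.25, 2.92 and 3.63 CPM in embryos. Its log2 fold change between testis and embryo was 3.01 ± 0.297 (SE, adjusted p 6.78e-06, edgeR).

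The 5 zebrafish-series genes higher in ovary than in embryo were znf971, znf989, znf1014, znf1015 and znf1144. The gene znf989 was at 0.689, 1.97 and 1.84 CPM in testes, 12.8, 13.5 and 14.3 CPM in ovaries and 2.95, 3.65 and 4.23 CPM in embryos. Ovaries stood above both other tissues, with a log2 fold change between testis and ovary of -3.16 ± 0.476 (SE, adjusted p 9.18e-05, edgeR). Similarly znf1015 was at 5.73, 5.81 and 7.18 CPM in testes, 23.6, 25.2 and 45.8 CPM in ovaries and 7.31, 9.88 and 8.79 CPM in embryos. For znf1014 testes were at 30.7, 30.2 and 44.7 CPM, ovaries at 31.5, 49.3 and 60.2 CPM and embryos at 9.41, 11.8 and 10.97 CPM, so both gonads were above embryos and overlapped each other.

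By gene order in the RefSeq table of the GRCz12tu assembly, which is not the build of the counts, 120 of the 135 members could be placed, and 18 of 27 placed zebrafish-series genes lay on the same chromosome. Counting protein-coding genes, 12 placed members had another placed member within 10 genes, in 6 pairs. Members that could not be placed, znf genes outside the member rows (such as znf1184 next to znf1002) and neighbours without a znf symbol were not counted. The count therefore does not measure how clustered such genes are. The pair znf1015 and znf989 were the 2 zebrafish-series genes called highest in ovary. The pair znf1008 and znf1014 differed, with znf1008 called lower in ovary than in embryo (log2 -1.31 ± 0.376 SE, adjusted p 0.00892, edgeR) and znf1014 higher (log2 2.13 ± 0.274 SE, adjusted p 4.16e-05, edgeR). The pair znf536 and znf507 also went separate ways, with znf536 called highest in testis and znf507 highest in ovary.

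**Figure D3:**
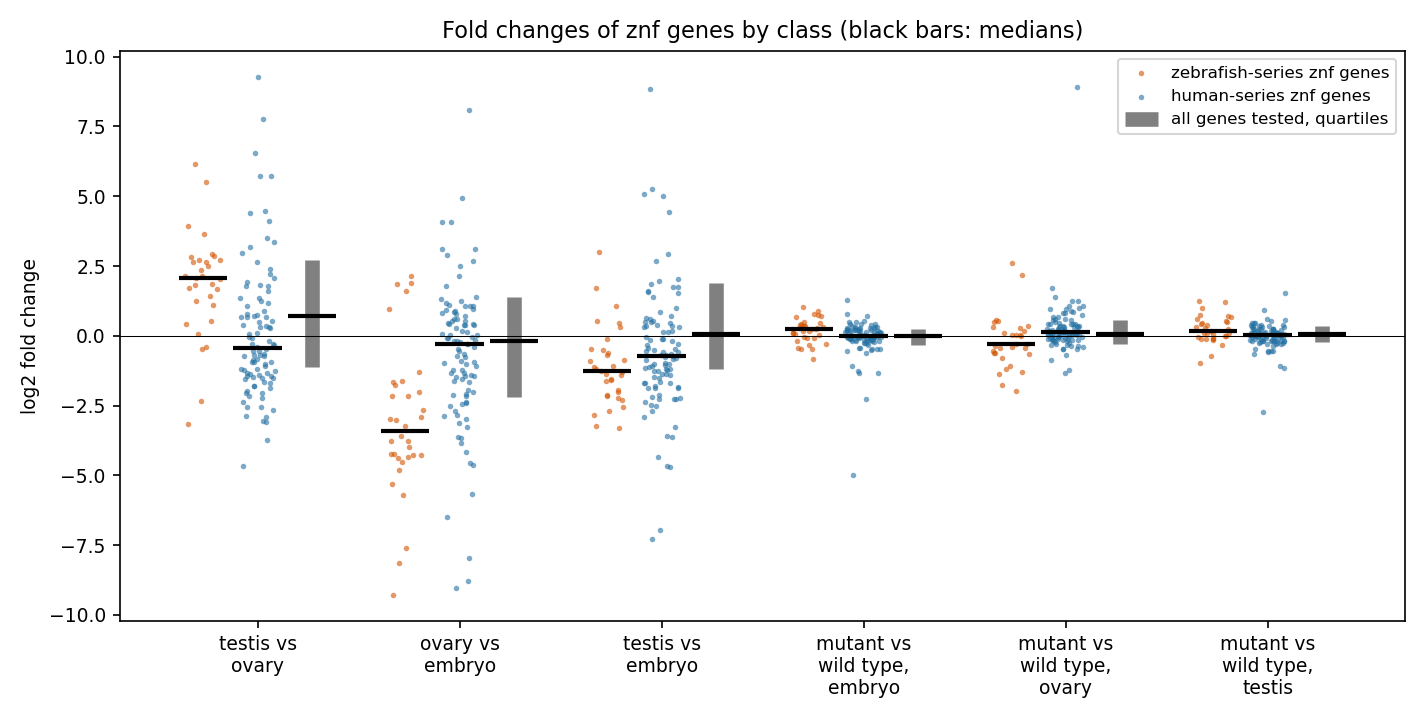
Log2 fold changes of zebrafish-series members (orange points) and human-series members (blue points), with the quartiles of all genes tested (grey bar) and medians as black bars, in 3 wild-type tissue comparisons and 3 mutant comparisons (tissue or mutant named first is on top of the ratio). The zebrafish-series medians of -3.41 in ovary against embryo and 2.07 in testis against ovary lie away from those of human-series members at -0.28 and -0.44, while in the mutant comparisons all medians lie between -0.30 and 0.25.

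Human-series genes were spread over the tissues. Of 98 tested in all 3 comparisons, 11 were called highest in testis (11.2%, beside 21% of all genes), 24 highest in ovary (24.5%, beside 20.7%) and 28 highest in embryo (28.6%, beside 17.4%). In testis 30 of 98 were called lower than in both other tissues, or 30.6%, beside 15.7% of all genes. The human-series genes summed to 3687, 2710 and 2991 CPM in testes, 4555, 4371 and 4505 CPM in ovaries and 6238, 6378 and 5694 CPM in embryos, without overlap.

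Among genes high in testis, znf541 stood out. Its mouse counterpart belongs to a histone deacetylase complex of meiotic spermatocytes. The level was 466, 246 and 241 CPM in testes, 2.91, 0.893 and 0.540 CPM in ovaries and 1.17, 0.597 and 0.330 CPM in embryos. Testes lay far above both other tissues, which overlapped. The log2 fold change was 7.76 ± 0.57 between testis and ovary (SE, adjusted p 2.69e-07, edgeR) and 8.85 ± 0.656 between testis and embryo (SE, adjusted p 1.37e-06, edgeR).

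The genes znf366 and znf536 were also called highest in testis. The gene znf366, known in mammals as the dendritic cell repressor DC-SCRIPT, was at 9.56, 8.37 and 9.35 CPM in testes, 0.258, 0.343 and 0.617 CPM in ovaries and 0.544, 0.0663 and 0.198 CPM in embryos. Testes were above ovaries by a log2 value of 4.49 ± 0.566 (SE, adjusted p 2.23e-05, edgeR). The gene znf536, a repressor of neuronal differentiation in mammals, was at 48.7, 24.4 and 41.3 CPM in testes, 0.969, 2.20 and 2.31 CPM in ovaries and 3.50, 5.90 and 5.68 CPM in embryos. It was higher in testis than in ovary (log2 4.39 ± 0.40 SE, adjusted p 1.53e-06, edgeR) and than in embryo (log2 2.92 ± 0.39 SE, adjusted p 6.56e-05, edgeR). The leukocyte marker sum ranged widely among these testes, as given above, and the part of leukocytes in these levels was not tested.

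For znf512 testes were at 15.98, 4.21 and 17.1 CPM, ovaries at 0.194, 0.343 and 0.154 CPM and embryos at 3.42, 5.70 and 3.77 CPM. Testis replicate 2 overlapped the embryos, and ovaries were lowest (testis against ovary, log2 5.72 ± 0.75 SE, adjusted p 3.06e-05, edgeR). The gene znf219, whose mouse counterpart is a SOX9 partner in cartilage, was at 7.49, 3.57 and 6.01 CPM in testes, 0.323, 0.412 and 0.231 CPM in ovaries and 2.18, 2.59 and 3.83 CPM in embryos (testis against ovary, log2 4.12 ± 0.466 SE, adjusted p 9.23e-06, edgeR).

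Among genes called highest in ovary, the largest difference from embryo was that of znf326. This gene, whose human protein links messenger ribonucleoproteins with RNA polymerase in the DBIRD complex, was at 12.1, 13.9 and 19.6 CPM in testes, 159, 107 and 124 CPM in ovaries and 0.777, 0.398 and 0.264 CPM in embryos. The 3 tissues were widely separated, and the log2 fold change between ovary and embryo was 8.09 ± 0.386 (SE, adjusted p 3.87e-08, edgeR). The mammalian ZNF143 and ZNF76 proteins activate small nuclear RNA and other genes. The znf76 level was 7.54, 7.83 and 8.76 CPM in testes, 43.1, 24.5 and 32.6 CPM in ovaries and 6.22, 4.84 and 4.69 CPM in embryos (ovary against embryo, log2 2.67 ± 0.277 SE, adjusted p 8.14e-06, edgeR). The copy znf143b was called highest in ovary, at 24.7, 18.6 and 17.4 CPM in testes, 135, 110 and 112 CPM in ovaries and 69.9, 67.7 and 57.9 CPM in embryos. The copy znf143a was at 23.8, 25.7 and 25.1 CPM in testes, 72.8, 59.8 and 73.0 CPM in ovaries and 56.6, 64.4 and 49.6 CPM in embryos, and ovary against embryo did not pass the test (log2 0.27 ± 0.166 SE, adjusted p 0.167, edgeR).

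All 3 genes of the znf395 group were called highest in ovary. The human protein is a DNA-binding factor linked to inflammatory gene expression. The level of znf395a was 9.77, 7.69 and 9.89 CPM in testes, 234, 216 and 252 CPM in ovaries and 101, 126 and 107 CPM in embryos (testis against ovary, log2 -4.67 ± 0.253 SE, adjusted p 2.77e-08, edgeR). For znf395b testes were at 19.9, 21.5 and 18.9 CPM, ovaries at 56.2, 48.9 and 48.1 CPM and embryos at 6.30, 6.23 and 5.35 CPM (ovary against embryo, log2 3.10 ± 0.198 SE, adjusted p 2.34e-07, edgeR). The copies therefore ranked testis and embryo in opposite order. The row named znf395 was at 32.4, 34.6 and 33.0 CPM in testes, 92.9, 90.3 and 102 CPM in ovaries and 36.5, 39 and 38.2 CPM in embryos. Reads of closely similar copies are divided by estimation, so the split between such rows is uncertain.

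Others with the highest level in ovary were znf277, znf511 and znf804a. The gene znf277 was at 11.7, 17.7 and 16.1 CPM in testes, 91.0, 69.7 and 78.9 CPM in ovaries and 9.33, 9.42 and 8.85 CPM in embryos (ovary against embryo, log2 3.12 ± 0.216 SE, adjusted p 4.04e-07, edgeR). For znf511 testes were at 4.99, 6.32 and 6.18 CPM, ovaries at 56.5, 37.0 and 39.3 CPM and embryos at 8.24, 8.03 and 7.20 CPM (testis against ovary, log2 -2.91 ± 0.286 SE, adjusted p 2.79e-06, edgeR). The gene znf804a, whose human counterpart lies at a psychiatric risk locus, was at 0.818, 0.503 and 1.04 CPM in testes, 4.52, 7.97 and 5.25 CPM in ovaries and 0.233, 0.199 and 0.132 CPM in embryos (ovary against embryo, log2 4.93 ± 0.526 SE, adjusted p 1.02e-05, edgeR). No tissues overlapped for znf804a. Its copy znf804b was at 2.97, 0.595 and 1.00 CPM in testes, 4.01, 3.98 and 4.17 CPM in ovaries and 0.155, 0.332 and 0.198 CPM in embryos.

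Of members with a known role at the ribosome, chosen for it after their values were seen, znf622, whose yeast relative matures the large ribosomal subunit, was called highest in ovary. Its level was 40.7, 34.1 and 30.7 CPM in testes, 119, 106 and 109 CPM in ovaries and 79.2, 76.8 and 75.1 CPM in embryos. The gene znf593, also a large-subunit factor in yeast, was likewise called highest in ovary. The gene znf598, a sensor of collided ribosomes in human cells, was at 302, 201 and 188 CPM in testes, 174, 121 and 139 CPM in ovaries and 82.7, 55.3 and 67.5 CPM in embryos (testis against ovary, log2 0.68 ± 0.331 SE, adjusted p 0.0818, edgeR). A gene shared by the gonads was znf296, which is linked to heterochromatin in mouse cells. It was at 39.3, 31.0 and 30.0 CPM in testes, 33.0, 26.6 and 18.2 CPM in ovaries and 2.25, 0.929 and 1.45 CPM in embryos. Testes and ovaries overlapped (log2 0.38 ± 0.293 SE, adjusted p 0.264, edgeR), and both were above embryos (testis against embryo, log2 4.44 ± 0.367 SE, adjusted p 1.96e-06, edgeR).

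Among genes called higher in embryo than in each gonad, znf750 was at 0.0431, 0.137 and 0.334 CPM in testes, 0.0646, 0.0687 and 0 CPM in ovaries and 40.9, 26.4 and 17.1 CPM in embryos. Both gonads were close to 0 (ovary against embryo, log2 -9.04 ± 0.755 SE, adjusted p 1.60e-06, edgeR). The gene znf185, a LIM-domain protein of the actin cytoskeleton in mammals, was at 5.17, 1.65 and 2.59 CPM in testes, 8.14, 2.68 and 2.24 CPM in ovaries and 538, 357 and 281 CPM in embryos (testis against embryo, log2 -6.96 ± 0.624 SE, adjusted p 5.39e-06, edgeR). The gonads overlapped each other there.

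The NET family corepressors znf703 and znf503 are known in zebrafish for hindbrain patterning. For znf703 testes were at 10.8, 4.26 and 4.13 CPM, ovaries at 2.52, 2.95 and 2.01 CPM and embryos at 164, 122 and 101 CPM (ovary against embryo, log2 -5.68 ± 0.431 SE, adjusted p 8.16e-07, edgeR). The second, znf503, was at 3.70, 1.83 and 3.30 CPM in testes, 40.1, 40.0 and 39.7 CPM in ovaries and 91.8, 71.8 and 66.3 CPM in embryos (testis against embryo, log2 -4.70 ± 0.281 SE, adjusted p 2.19e-07, edgeR). Ovary thus lay between testis and embryo for znf503, while for znf703 testis against ovary did not pass the test (adjusted p 0.0503, edgeR). For znf618 testes were at 3.49, 2.88 and 3.25 CPM, ovaries at 32.1, 23.4 and 24.2 CPM and embryos at 79.8, 79.9 and 86.2 CPM (testis against embryo, log2 -4.67 ± 0.212 SE, adjusted p 4.75e-08, edgeR).

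The gene that was close to 0 in mutant embryos, znf664, was itself embryo-high. In wild type it was at 1.55, 1.24 and 1.96 CPM in testes, 0, 0 and 0.0772 CPM in ovaries and 6.84, 10.5 and 5.68 CPM in embryos. The log2 fold change was -7.97 ± 0.736 between ovary and embryo (SE, adjusted p 3.41e-06, edgeR), a size that rests on 1 ovary library with a count.

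**Figure D4:**
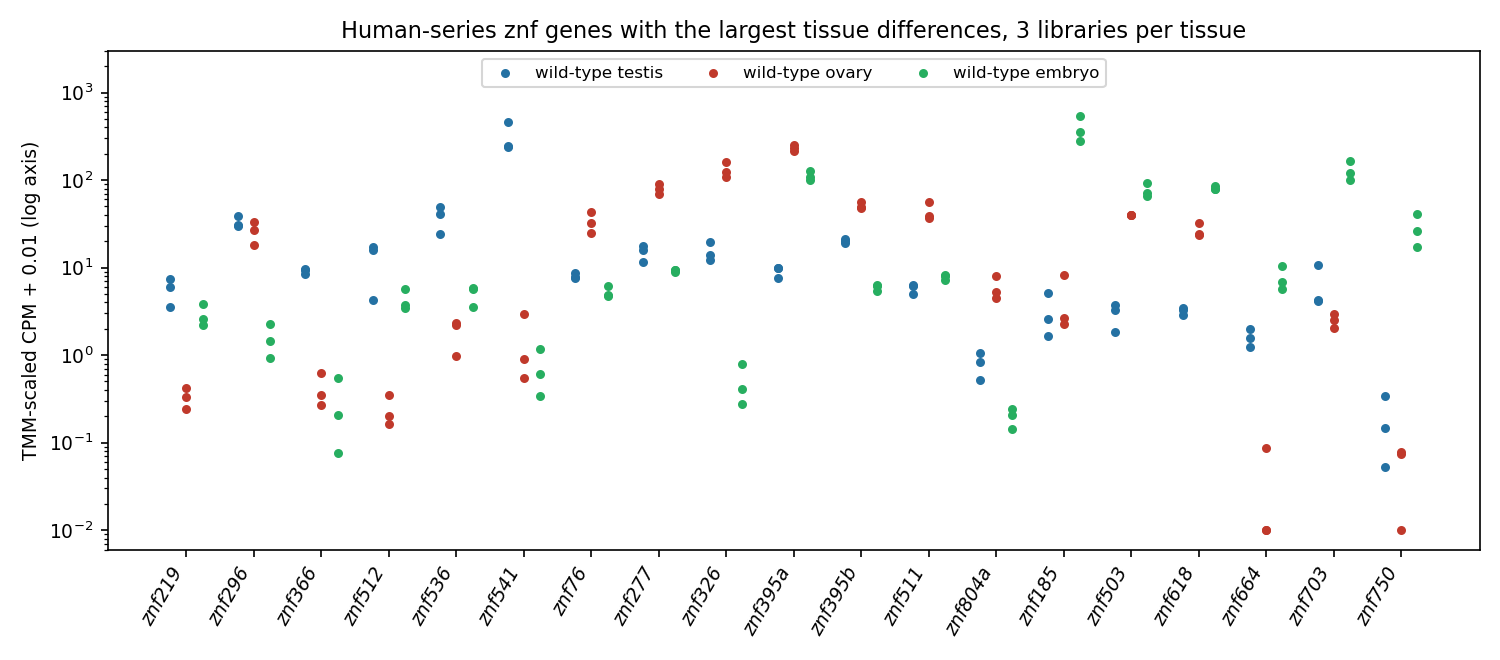
TMM-scaled CPM plus 0.01 (log axis, 1 point per library, 3 libraries per tissue) of the human-series znf genes with the largest tissue differences, in wild-type testis (blue), ovary (red) and embryo (green). Genes are grouped by the tissue with the highest mean: znf541 reaches 241 to 466 CPM in testis, znf326 107 to 159 CPM in ovary and znf185 281 to 538 CPM in embryo.

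Among the members, 11 pairs of a and b copies exist, which in zebrafish usually stem from the genome duplication of teleost fish. Both copies were called in opposite directions for 3 pairs between testis and ovary, 1 pair between ovary and embryo and 2 pairs between testis and embryo. In these comparisons 70.5%, 69.8% and 67% of all genes were called. The share of opposite calls over a/b pairs of all genes was not computed, so these counts do not set znf pairs apart. The ZNF207 protein helps load a spindle checkpoint factor in human cells. Its copy znf207a was at 61.1, 36.2 and 39.8 CPM in testes, against 133, 114 and 112 CPM in ovaries (log2 -1.38 ± 0.373 SE, adjusted p 0.00558, edgeR). Its copy znf207b was at 51.5, 42.6 and 60.9 CPM in testes, against 26.7, 37.7 and 34.5 CPM in ovaries (log2 0.66 ± 0.248 SE, adjusted p 0.0311, edgeR).

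For znf292a testes were at 68.6, 85.5 and 117 CPM, against 22.0, 26.3 and 29.3 CPM in ovaries (log2 1.81 ± 0.241 SE, adjusted p 3.47e-05, edgeR). For znf292b testes were at 77.4, 53.0 and 57.8 CPM, against 131, 156 and 157 CPM in ovaries (log2 -1.23 ± 0.309 SE, adjusted p 0.00367, edgeR). The third opposite pair was znf362a and znf362b, with log2 fold changes of -1.09 ± 0.33 and 3.38 ± 0.564 (SE, adjusted p 0.0104 and 0.000207, edgeR). Against embryos, testes differed in opposite directions for znf395a and znf395b, and for znf518a and znf518b, and ovaries for znf518a and znf518b. The pairs were picked out by their opposite calls, so these values describe them.

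**Figure D5:**
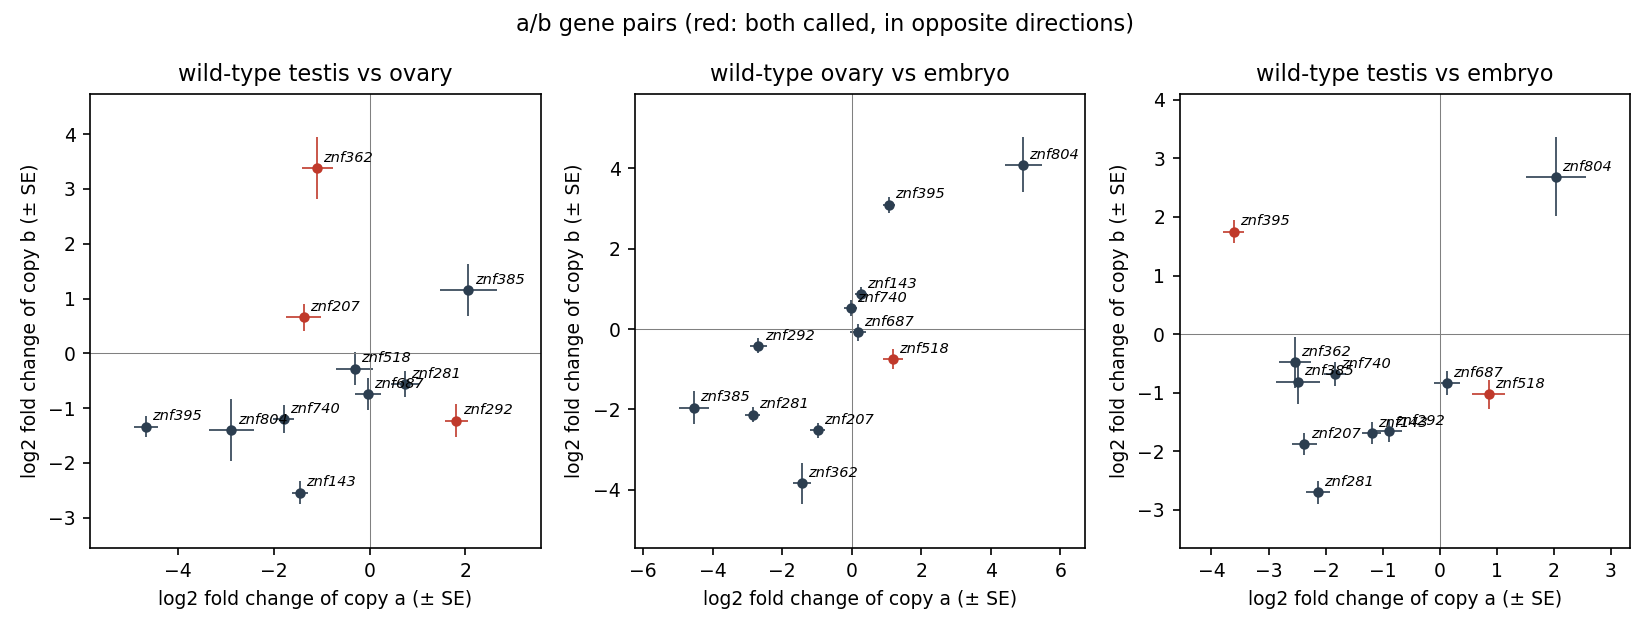
Log2 fold change of copy b against that of copy a (each ± SE) for the a/b pairs in 3 wild-type tissue comparisons, with pairs called in opposite directions in red. The red points are znf207, znf292 and znf362 in testis against ovary, znf518 in ovary against embryo, and znf395 and znf518 in testis against embryo.

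Lists of related genes give a setting for these counts. Of 133 genes in other C2H2 families (klf, zbtb, prdm, egr, zic, gli and similar), 123 were tested in embryos and 2 (1.63%) were called in mutants, against 4.09% of all genes. These were zbtb11 (log2 0.69 ± 0.136 SE, adjusted p 0.00825, edgeR) and klf13 (log2 -0.69 ± 0.183 SE, adjusted p 0.0393, edgeR). In mutant ovaries 0 of 129 were called, against 0.553% of all genes, and in mutant testes 0 of 129, against 0.0696%. Of these genes 33 were higher and 74 lower in ovary than in embryo, 80.5% in all against 69.8% of all genes. Their median log2 fold change was -1.38, against -0.18 for all genes, and lay between the medians of the zebrafish-series and human-series znf genes. In testis 25 were higher and 74 lower than in embryo, 74.4% in all against 67% of all genes, with a median of -1.23, close to the -1.28 of the zebrafish-series znf genes. Between testis and ovary 44 were higher in testis and 35 lower, 61.2% in all against 70.5% of all genes, with a median of 0.22. In the kctd15 injections 0 of 123 were called with kctd15 alone and 0 with AP2-P59, where 0% of all genes were. With AP2 1 of 123 (0.813%) was called, against 0.197% of all genes. This was snai1b (log2 -1.03 ± 0.192 SE, adjusted p 0.0260, edgeR).

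The second list held 22 partners of repressive zinc finger proteins, such as setdb1, cbx, hdac1 and dnmt1, which modify or bind chromatin. None of the 22 was called in mutant embryos, ovaries or testes, where 4.09%, 0.553% and 0.0696% of all genes were, so a count of 0 does not set them apart. In testis 1 was higher and 14 lower than in ovary (median log2 -1.31), against 41.6% higher and 28.9% lower of all genes (median 0.72). In testis 1 was higher and 18 lower than in embryo (median log2 -1.36), against 34.4% higher and 32.5% lower of all genes (median 0.07). In ovary 7 were higher and 9 lower than in embryo, with a median of -0.16 and of -0.18 for all genes, whereas the zebrafish-series znf genes had a median of -3.41 there.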

How the data were processed

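Stranded libraries were prepared from TRIzol-extracted RNA, per the labels' protocols. Per the submitters' processing notes, Trimmomatic 0.36, kallisto 0.43.0, edgeR and the build GRCz10 were used. The authors deposited estimated counts (expected counts, not whole numbers) for 30490 genes and for transcripts, and a normalized signal in CPM for 25374 genes, used only as an alternative. How transcripts were summed to genes is not given in the sources used here.

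Gene-level estimated counts were rounded and analysed in R 4.3.3 by edgeR 4.0.16 (TMM factors, filterByExpr with minimum count 10 and minimum total 15, robust quasi-likelihood F tests, two-sided, Benjamini-Hochberg over all genes, threshold 0.05). There were 3 fits: 21 embryo libraries, 12 gonad libraries and 9 wild-type libraries, with 129, 129 and 133 members tested and biological coefficients of variation of 0.241, 0.429 and 0.336. One member, znf648, passed no filter. Each fit has its own CPM scale, so a wild-type level differs slightly between scales. Levels in mutant comparisons are on the embryo and gonad scales, and levels in tissue comparisons on the wild-type scale. Testis against ovary was tested in the gonad fit of 12 libraries, which includes the mutant gonads. Ovary and testis against embryo were tested in the wild-type fit. Genes called highest in ovary or testis, or lower there than in both other tissues, therefore combine calls from these 2 fits. A fold change's standard error is its size divided by the square root of F. The scripts were tested on simulated data.

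The members and lists were chosen with earlier results of these data known. Named are, in mutant comparisons, up to 8 called members each way with at least 1 CPM; in tissue comparisons, up to 6 each way with at least 5 CPM and no overlap; and the other copy of an a/b pair. Further members are named as nearest to a call, by opposite calls or by role, after their values were seen.

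Whether equal replicate numbers pair libraries was examined through the correlation of deviations from group means. They paired the samples in the kctd15 comparisons alone (0.581, 0.168 and 0.421), with AP2 (0.342, 0.411 and 0.306) and with AP2-P59 (0.442, 0.287 and 0.25). For mutant embryos all correlations were positive but the third was small (0.327, 0.212 and 0.096). These libraries were not treated as paired, nor were the gonads. Mutant and wild-type gonads gave 0.397, 0.232 and 0.0767 in testes, much like the embryos, and 0.0605, 0.0472 and -0.0434 in ovaries. The size taken as pairing was a choice, and the mutant embryo calls depend on it: the block gave 17 members (13.2%), against 13.1% of all genes. Alternatives were RLE scaling, no filter, DESeq2 1.42.0, limma-trend 3.58.1 on the deposited CPM plus 0.5, fits of only the libraries compared, a replicate block and leaving out each library.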

Additional observations from a re-analysis of the deposited data

Results flagged for a closer look

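A few znf genes had mutant libraries on one side of all wild-type libraries in 1 tissue and on the other side in another. This held for 4 of 124 members in embryo and ovary (3.23%, against 2.07% of all genes), 1 of 124 in embryo and testis (0.806%, against 1.75%) and 2 of 129 in ovary and testis (1.55%, against 1.09%). Such a share is near that of all genes. None had a call in either tissue in the edgeR fits reported. DESeq2 called znf989 in mutant embryos (adjusted p 0.0496) and znf1008 in mutant ovaries (adjusted p 0.0132). With a replicate block edgeR called znf219, znf395b and znf989 in mutant embryos (adjusted p 0.0131, 0.0397 and 0.043), and in a fit of only the libraries compared it called znf395b (adjusted p 0.0175). In embryo against ovary, znf1117 had a mutant log2 fold change of 0.44 in embryos and -1.37 in ovaries (difference 1.81), znf219 had -1.32 and 0.84 (difference -2.15), znf451 had 0.10 and -0.33 (difference 0.43), and znf989 had 0.77 and -0.79 (difference 1.56). In embryo against testis, znf395b had -1.33 in embryos and 0.38 in testes (difference -1.71). These embryo and gonad values come from separate fits, and their differences were not tested. In ovary against testis, znf1008 had -1.77 in ovaries and 0.39 in testes (difference -2.16), and znf451 had -0.33 and 0.92 (difference -1.25). The interaction test of edgeR gave these 2 an adjusted p of 0.24 and 0.29, and DESeq2 gave znf1008 0.0213.

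The embryo values of 2 of these genes did not set the mutants apart from injected embryos. The gene znf219 was at 0.795 to 1.24 CPM in mutant embryos and 0.521 to 3.61 CPM in the 15 injected libraries, and znf395b was at 1.77 to 2.29 CPM in mutant embryos and 1.49 to 6.43 CPM in injected ones.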

How the results depend on the processing

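With a replicate block, 17 of 129 znf genes (13.2%) were called in mutant embryos (9 higher, 8 lower; 3 shared with those reported), against 13.1% of all genes in that fit. They included znf1002, znf512 and znf346. DESeq2 called 5, adding znf1002 and znf989, or 3.76% against 7.05% of all genes. Leaving out 1 library gave 1 to 3 calls, with 1 call each without wild-type embryo replicate 2, wild-type embryo replicate 3 or mutant embryo replicate 2. The gene znf664 was called in all 12 alternatives, at a log2 fold change of -6.06 to -3.40. In fits of only the libraries compared, znf532 and znf1005 had adjusted p of 0.0619 and 0.0676 in edgeR and znf395b 0.0175. Mutant ovaries had 2 calls with the block (znf410, znf653; 1.55% against 0.429% of all genes), 4 with DESeq2, and 0 to 1 when a library was left out (1, znf541, without wild-type ovary replicate 1). The ovary minus testis difference had 1 call with DESeq2. The causes were not tested. The znf count stayed at 0 in every alternative in the kctd15 injections and in mutant testes. Over all genes the block moved the calls to 12, 143 and 13 in the injections, against 0, 44 and 0 without it.

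The tissue counts stayed within 1.5 times the reported ones under every alternative: 83 to 99 for testis against ovary, 95 to 106 for ovary against embryo and 87 to 101 for testis against embryo. The alternatives counted by class were chosen after seeing the data. None of the 36 tissue differences named by size lost its call or turned round; those named for pairs, neighbours or roles were not recomputed singly. The median of all genes in testis against embryo, 0.07 as reported, was 0.18 with RLE scaling, 0.25 with no filter and 0.38 with DESeq2, where the zebrafish-series median was -1.17, -1.30 and -1.18. In testis against ovary it was 0.72 as reported and 0.49 to 0.95 in the alternatives that left out no replicate. With limma the zebrafish-series medians were -2.49 in ovary against embryo and 1.46 in testis against ovary. The planned look at protein features was not run, as no protein sequences were used here. With 3 libraries a group and a coefficient of variation of 0.429 in gonads, members near 0 CPM have wide errors.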

Other observations

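The transcript shares of znf395a differed in mutant embryos although its gene level did not pass the test (log2 0.23 ± 0.107 SE, adjusted p 0.233, edgeR). Of its 2 transcripts that could be matched in the deposited transcript table, the predicted one held 10.9%, 7.41% and 13% of their estimated counts in mutant embryos. In wild-type embryos it held 32%, 37.2% and 50.4%. The 18 embryo libraries of wild-type genotype ranged from 24.7% to 53.6%, with a median of 43.2%, so none overlapped the mutants. In testes the share was 36%, 30.3% and 4.95% in mutants, against 64.1%, 71.7% and 81.7% in wild type. In ovaries it was 4.28%, 56.2% and 32.7% in mutants, against 38%, 29.9% and 32.9% in wild type, and the groups overlapped. These shares were looked at after the gene results were known and were not tested. They were computed for this gene alone, so how many other genes show such a difference is not known.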
